A study of Homo sapiens with 19 samples.

Results

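The Fc receptor genes described here are 7 genes chosen by name, FCGR1A, FCGR2A, FCGR2B, FCGR3A, FCER1G, FCAR and FCGRT, out of the 20007 protein-coding genes that GENCODE release 44 places on the hg38 assembly. The cells were MOLM-13, an established human acute myeloid leukaemia line, and the assay was CUT&RUN, in which an antibody-directed nuclease cuts out the chromatin fragments that carry a mark. Of 19 libraries, the 12 with a peak list of H3K27ac, H3K4me2 or H3K4me3 were examined. For each mark, 2 libraries came from cells kept for 24 h with 0.1 µM Corin and 2 from cells kept for 24 h with its vehicle, DMSO. Corin is a hybrid inhibitor of the CoREST complex that blocks its class I histone deacetylases and the demethylase LSD1. The labels write 0.1 µM beside DMSO too and do not say what that amount refers to. The remaining 7 libraries (4 with Corin plus all-trans retinoic acid, 1 against LSD1 and 2 IgG controls) were left out, and whether the authors set IgG against their peaks is not given in the sources used here. Nothing in the labels says whether the 2 libraries of a group came from separate cultures, so their spread may be technical.

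Fc receptors bind the constant part of antibodies and let phagocytes, NK cells and mast cells react to antibody-coated targets. Activating receptors signal through an ITAM, a tyrosine motif that FCGR2A carries in its own tail and that FCGR1A, FCGR3A and FCAR borrow from the common gamma chain encoded by FCER1G. FCGR2B carries the opposite, inhibitory motif, and FCGRT encodes the neonatal Fc receptor, which salvages IgG and albumin from endosomes. Of the marks, H3K27ac lies on active promoters and enhancers, H3K4me3 on active promoters, and H3K4me2 on both promoters and enhancers, including ones that are primed but not acetylated.

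For each gene, the bases lying under peaks were counted within 10 kb either side of the annotated transcription start site (TSS), here called the window, and over the gene body. A gene was called higher where both Corin lists lay above both DMSO lists, and lower in the opposite case. With 2 libraries against 2, the exact two-sided permutation p cannot go below 0.333, so no difference within a single mark could pass that test. The Corin lists were longer as a whole. Their mean number of peaks was 1.71 times that of DMSO for H3K27ac, 1.28 times for H3K4me2 and 1.05 times for H3K4me3, and the covered length was 1.96, 1.28 and 1.06 times as large. Covered length ranged over 11.1 to 26.1 Mb per H3K27ac list, 33.4 to 47.4 Mb per H3K4me2 list and 14.2 to 15.6 Mb per H3K4me3 list. Read totals behind the lists were not used here, so the depth of each value is unknown.

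Chromatin of the lineage matched the label in part. Of 8 myeloid marker genes, 4 (CD33, LYZ, SPI1 and CEBPA) had an H3K4me3 peak within 1 kb of the TSS in all 4 lists of that mark. CSF1R, ITGAM and MPO had none of that mark, and CD14 had such a peak in the Corin 1 list only. None of 4 B-cell, 3 T-cell, 3 NK-cell and 2 erythroid markers had such a peak in all 4 lists. NKG7, a granule protein of NK cells, had 1 in 3 of the lists. In the other marks the lineages were not as separate. H3K4me2 was within 1 kb of the TSS in all 4 lists at NKG7 and at the B-cell genes CD79A and PAX5. H3K27ac was there in all 4 lists at NKG7 and MPO and in 3 at CD79A.

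In H3K27ac, 3 of the 7 Fc receptor genes had a peak in the window in any list, FCGR2A, FCER1G and FCGRT, and all 3 were called higher with Corin and none lower. Across the genome 54.6% of the 10529 protein-coding genes with H3K27ac were called higher and 0.655% lower. In H3K4me2, 5 of the 7 had a peak. Of these, 4 were called higher (FCGR2A, FCGR3A, FCER1G and FCGRT) and none lower, beside 39.5% higher and 3.83% lower among 14074 genes. The median H3K4me2 difference over those genes was 233.5 bp. FCGR3A (32 bp) and FCER1G (111 bp) lay below it, and FCGR2A (1205 bp) and FCGRT (1377.5 bp) above it. In H3K4me3, both genes with a peak, FCGR2A and FCGRT, were called higher and none lower, beside 25.7% higher and 8.28% lower among 11189 genes. FCGR2B and FCAR had no peak in any of the 12 lists. Divided by the length that each list covered in all, 2 Fc receptor genes stayed higher in H3K27ac (FCGR2A and FCER1G), 0 in H3K4me2 and 2 in H3K4me3. On that scale the split over all genes was 16.5% higher against 25.0% lower in H3K27ac, 9.86% against 45.9% in H3K4me2 and 14.0% against 19.8% in H3K4me3.

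**Figure D1:**
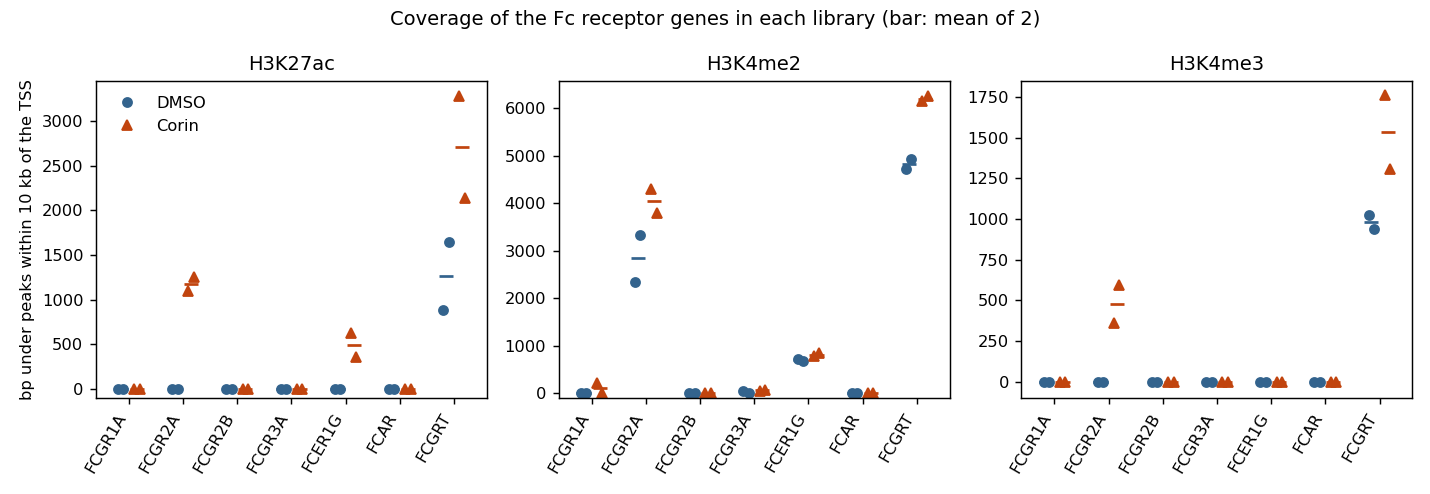
Bases under peaks within 10 kb of the TSS (vertical axis, bp) for the 7 Fc receptor genes in each library, blue circles for DMSO, orange triangles for Corin and a bar for the mean of 2. FCGR2A and FCER1G lie at 0 in both DMSO libraries of H3K27ac and above 0 in both Corin libraries, FCGRT is covered in all 12 lists, and FCGR2B and FCAR lie at 0 throughout.

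FCGR2A (ENSG00000143226.16, chr1:161505430-161524013, plus strand) encodes the activating low-affinity IgG receptor of monocytes, neutrophils and platelets. It acquired H3K27ac peaks in both Corin lists where neither DMSO list had any. The H3K27ac coverage of its window was 1092 bp in Corin 1, 1251 bp in Corin 2 and 0 bp in each DMSO list, a mean of 1172 ± 112 bp (SD, n = 2) against 0. That difference stood at the 84.2 percentile of all genes with H3K27ac, whose median difference was 445 bp.

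The acetylated region lay just inside the gene, at chr1:161505501-161506143, from 71 to 713 bp after the TSS, over exon and intron. Its peaks were 608 bp wide in Corin 1 and 470 bp wide in Corin 2. They were modest peaks of their lists: the authors' score was 86 in Corin 1, at the 28.3 percentile of that list, and 113 in Corin 2, at the 47.2 percentile. With every H3K27ac list shortened to its 17599 best-scoring peaks, the number in the shortest list, FCGR2A kept 470 bp in Corin 2 and had 0 bp in Corin 1, so the call was lost. With only peaks of a score of at least 100, its window had 484 bp in Corin 1, 470 bp in Corin 2 and 0 bp in both DMSO lists. The window was still called higher, but the 484 bp came from an upstream peak. The region inside the gene was then left in Corin 2 only. Further acetylation lay upstream but at different places in the 2 Corin lists, a 484 bp peak starting at -6012 bp from the TSS in Corin 1 and a 781 bp peak starting at -5224 bp in Corin 2.

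The promoter already carried H3K4me2 in DMSO. A region of 2720 bp, chr1:161504948-161507667, was marked in all 4 lists, over 2720 bp in Corin 1, 2680 bp in Corin 2, 2025 bp in DMSO 1 and 2478 bp in DMSO 2. In contrast to the acetylation, this was a strong peak, between the 88.0 and 99.0 percentiles of score in the 4 lists. In all, 8 of 9 H3K4me2 regions near Fc receptor genes were in all 4 lists, as were 55.6% of the 42429 regions over the genome. None was in both lists of 1 treatment only, a pattern that 9.64% of all regions had with Corin and 0.158% with DMSO. The upstream region of 1571 bp was also present in all 4, with 1571 and 1119 bp in Corin against 320 and 857 bp in DMSO. Window coverage of H3K4me2 was 4291 and 3799 bp in the Corin lists and 2345 and 3335 bp in the DMSO lists, a mean of 4045 ± 348 bp against 2840 ± 700 bp (SD, n = 2 each). The groups did not overlap, but the DMSO lists differed from each other by more than the gap between the groups, and divided by covered length the groups overlapped. Without DMSO 1 the difference was 710 bp instead of 1205 bp.

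H3K4me3 at the promoter appeared with Corin only, and weakly. The window held 358 bp in Corin 1, 591 bp in Corin 2 and 0 bp in each DMSO list, all of it in one region of 716 bp from 86 to 801 bp after the TSS. The scores of those peaks, 73 and 95, were at the 3.21 and 7.14 percentiles of their lists. Neither peak reached a score of 100, and with H3K4me3 lists shortened to a matched number only the one in Corin 2 was left. Across the genome 1.49% of 12090 H3K4me3 regions were present in both Corin lists and in neither DMSO list, and 0.289% the other way round. A separate H3K4me3 peak at the 3' end of the gene, near the TSS of the heat shock gene HSPA6 at 19110 bp, was present in all 4 lists.

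The start of FCGR2A shares a stretch with the start of FCGR1A, the gene of the high-affinity IgG receptor, and the pair is shown because only FCGR2A was marked in all of the H3K4me2 lists. Each sequence runs 5′ to 3′ on the plus strand of hg38 from the start of the RefSeq promoter window to the base before the annotated gene.
FCGR2A promoter, chr1:161505207-161505429: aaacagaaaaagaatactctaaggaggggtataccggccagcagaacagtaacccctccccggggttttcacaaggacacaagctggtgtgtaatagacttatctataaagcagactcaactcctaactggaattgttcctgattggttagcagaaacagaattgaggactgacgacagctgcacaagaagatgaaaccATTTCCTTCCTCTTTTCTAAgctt
FCGR1A promoter, chr1:149782444-149782670: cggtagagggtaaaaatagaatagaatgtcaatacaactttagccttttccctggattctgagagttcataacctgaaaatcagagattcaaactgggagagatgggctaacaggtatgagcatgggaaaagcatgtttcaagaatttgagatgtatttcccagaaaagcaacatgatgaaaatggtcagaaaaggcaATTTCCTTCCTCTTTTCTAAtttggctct
Capitals mark the 20-base word the genes have in common, which begins 51 bases before the RefSeq start of FCGR2A and 52 bases before that of FCGR1A. It occurred in 2 of the 35116 RefSeq promoter windows, those of these genes. The longest word shared by any other pair of Fc receptor promoters was 11 bases. Within the word lies the reverse complement of GAGGAA, the core letters bound by the myeloid factor PU.1, a short motif that 27.9% of all promoter windows hold on either strand.

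FCER1G (ENSG00000158869.11, chr1:161215234-161220699, plus strand) encodes the gamma chain through which several Fc receptors signal. Its only marked place was an intronic region. H3K27ac covered 627 bp in Corin 1, 355 bp in Corin 2 and 0 bp in each DMSO list, a mean of 491 ± 192 bp (SD, n = 2) against 0. All of it lay at chr1:161216495-161217121, from 1261 to 1887 bp after the TSS, and the difference was at the 53.9 percentile of all genes with H3K27ac. These peaks scored 142 and 110, and the call held with lists of a matched number and with the stricter score.

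H3K4me2 sat at the same intronic place in all 4 lists, over 783 bp in Corin 1, 839 bp in Corin 2, 718 bp in DMSO 1 and 682 bp in DMSO 2. The means were 811 ± 39.6 bp with Corin and 700 ± 25.5 bp with DMSO (SD, n = 2 each), so the groups did not overlap but were close. The sign of that difference did not hold: per Mb covered by the list it was -1.85 bp, and with the stricter score or a matched number it was -308.5 bp, since the Corin 2 peak, with a score of 97, dropped out. No list of any mark had a peak within 1 kb of the TSS of FCER1G, and H3K4me3 was at 0 bp in the window in all 4 lists. The TSS of APOA2, an apolipoprotein gene, also lies in the window, at 8397 bp.

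The acetylated stretches of FCGR2A and FCER1G are shown because they are the 2 regions near an Fc receptor gene that H3K27ac marked in both Corin lists and in neither DMSO list, out of 9 regions near these genes. Over the genome 11.5% of 41587 H3K27ac regions had that pattern and 0.18% the opposite one, which no Fc receptor region had. Each sequence is 300 bases of the plus strand of hg38 inside the part common to both Corin peaks.
FCGR2A, chr1:161505569-161505868: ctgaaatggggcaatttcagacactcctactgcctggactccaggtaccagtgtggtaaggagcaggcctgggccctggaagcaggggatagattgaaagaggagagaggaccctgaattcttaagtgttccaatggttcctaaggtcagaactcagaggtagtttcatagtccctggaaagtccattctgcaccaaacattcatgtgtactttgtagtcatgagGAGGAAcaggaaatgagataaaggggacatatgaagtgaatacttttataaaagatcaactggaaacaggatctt
FCER1G, chr1:161216534-161216833: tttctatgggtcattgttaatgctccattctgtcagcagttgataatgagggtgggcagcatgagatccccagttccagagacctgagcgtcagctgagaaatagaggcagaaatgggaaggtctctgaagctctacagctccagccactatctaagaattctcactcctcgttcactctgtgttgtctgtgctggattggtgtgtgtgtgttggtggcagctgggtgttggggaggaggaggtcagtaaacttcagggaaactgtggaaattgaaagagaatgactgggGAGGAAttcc
Capitals mark GAGGAA, found 1 time in each on either strand. The central 300 bases of 29.6% of all H3K27ac regions hold it too. TTCNNNGAA, the letters bound by STAT factors, was found 1 time in the FCER1G stretch, apart from the capitals, and not in that of FCGR2A, beside 8.07% of all regions. Neither stretch held TTGCNNAA of C/EBP factors (13.1% of regions), the GFI1 motif (0.159%) or a retinoic acid response element of direct repeats (0.0144%). The promoter window of FCER1G, which no list marked, held none of these motifs, but promoter windows of genes with few or no peaks held some: that of FCGR1A had 1 GAGGAA and 1 TTCNNNGAA, and the window at the start of FCGR2B had 2 of each.

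FCGR1A (ENSG00000150337.14, chr1:149782671-149791675, plus strand) had a single peak in all 12 lists. H3K4me2 covered 210 bp in Corin 1 and 0 bp in Corin 2, DMSO 1 and DMSO 2, and the peak ended 621 bp before the TSS. The groups overlapped at 0, and H3K27ac and H3K4me3 were at 0 bp in all of their lists.

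FCGR3A (ENSG00000203747.13, chr1:161541759-161550968, minus strand) encodes the IgG receptor of NK cells and of some monocytes. Its window was touched at the far edge by H3K4me2, over 52 bp in Corin 1, 73 bp in Corin 2, 51 bp in DMSO 1 and 10 bp in DMSO 2. The region behind those bases lay beyond the 3' end of the gene, starting 9928 bp from the TSS, and was present in all 4 lists. The gene was called higher by 1 bp between the nearest lists, and its body held 0 bp of every mark.

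FCGR2B (ENSG00000072694.22, chr1:161663143-161678654, plus strand), the inhibitory receptor of B cells and myeloid cells, and FCAR (ENSG00000186431.19, chr19:54874235-54891420, plus strand), the IgA receptor of neutrophils and monocytes, had 0 bp in the window and the body in all 12 lists. A list with no peak says only that no enrichment passed the authors' threshold there.

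A short sequence that exists elsewhere in the genome can leave a read without a unique place, so the share of such sequence was counted for each locus. Of the 150-base words (the labelled read length) within 1 kb of the TSS, 91.9% of those of FCGR2B and 60.5% of those of FCGR1A occurred elsewhere in hg38, against 11.3% for FCGR3A and 0% for FCGR2A, FCER1G, FCAR and FCGRT. Over the window the shares were 69.2% for FCGR2B, 41.7% for FCGR1A, 18.9% for FCGR3A, 4.25% for FCGR2A and 0.766% for FCAR. Shorter words repeat more: of the 50-base words within 1 kb of the TSS, 97.4% at FCGR2B, 85.1% at FCGR1A, 50.5% at FCGR3A, 20.2% at FCGRT, 10.3% at FCER1G, 8.86% at FCAR and 7.33% at FCGR2A occurred elsewhere. How the authors treated reads with several places is not given in the sources used here, and its part in the empty loci was not tested.

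The near-identical copies were mostly empty as well. FCGR2C, the copy that pairs with FCGR2B, had 0 bp of every mark in its window and 91.9% repeated words within 1 kb of its TSS. FCGR3B, the neutrophil copy of FCGR3A, held H3K4me2 over 398 bp in Corin 1 and 218 bp in DMSO 1 and 0 bp in the others. FCGR1BP, a pseudogene copy of FCGR1A, held H3K4me2 over 247 bp in Corin 1, 500 bp in Corin 2, 0 bp in DMSO 1 and 209 bp in DMSO 2, while the copy FCGR1CP had none. Values of genes and copies with this much shared sequence are uncertain, because a peak could have been placed on either.

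**Figure D2:**
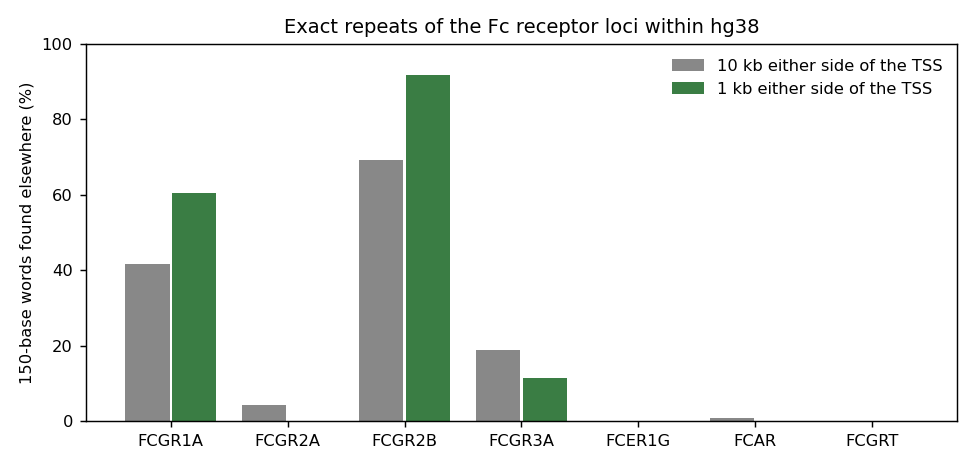
Share of the 150-base words of each Fc receptor locus that occur elsewhere in hg38 (vertical axis, %), grey for the 10 kb window and green for 1 kb either side of the TSS. FCGR2B at 91.9% and FCGR1A at 60.5% near the TSS stand above FCGR3A at 11.3%, and FCGR2A, FCER1G, FCAR and FCGRT are at 0% there.

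FCGRT (ENSG00000104870.13, chr19:49506816-49526428, plus strand) had the widest window coverage of the 7 in every mark. Window coverage of H3K27ac was 3284 bp in Corin 1, 2141 bp in Corin 2, 883 bp in DMSO 1 and 1642 bp in DMSO 2, with means of 2713 ± 808 bp against 1263 ± 537 bp (SD, n = 2 each). The groups did not overlap, and the difference of 1450 bp was at the 89.3 percentile of all genes with H3K27ac. Corin 1 gave much of it: without that library the difference was 878.5 bp, and without Corin 2 it was 2022 bp. Per Mb covered the difference was 10.9 bp and the groups overlapped.

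H3K4me2 of the FCGRT window was 6142 and 6254 bp in the Corin lists and 4720 and 4921 bp in the DMSO lists, means of 6198 ± 79.2 bp against 4821 ± 142 bp (SD, n = 2 each). The groups did not overlap, and the difference was at the 94.8 percentile of all genes with H3K4me2, but per Mb covered the difference was 1.10 bp and the groups overlapped. H3K4me3 was 1759 and 1304 bp against 1025 and 935 bp, means of 1532 ± 322 bp and 980 ± 63.6 bp (SD, n = 2 each). Corin 1 gave much of that difference too, which was 551.5 bp with all libraries and 324 bp without Corin 1. A pair of peaks found in Corin 1 only, with scores of 55 and 67 at the 0.476 and 2.08 percentiles of that list, dropped out with the stricter score or a matched number. The difference was then 176.5 bp, the groups overlapped and the call was lost.

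The annotation gives FCGRT a pair of starts. The gene record begins 5845 bp upstream of the start of the basic transcripts at chr19:49512661, and the only mark within 1 kb of the upstream start was H3K4me2, over 211 to 374 bp in each of the 4 lists. Within 1 kb of the downstream start, H3K4me2 covered 1825, 1882, 1813 and 1626 bp in Corin 1, Corin 2, DMSO 1 and DMSO 2. The lowest Corin value and the highest DMSO value nearly met there. H3K27ac covered 927 bp in Corin 1, 685 bp in Corin 2, 0 bp in DMSO 1 and 269 bp in DMSO 2 there. H3K4me3 covered 750 bp in Corin 1 and 0 bp in the other 3 lists. The downstream start had H3K4me2 in all lists and more acetylation in both Corin lists, while its H3K4me3 rested on a single library.

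With the downstream start the window held 375 ± 530 bp (SD, n = 2) of H3K4me3 in Corin against 0 bp, and the call was lost. An intronic region of 2258 bp, starting 8318 bp after the gene record's start, carried H3K27ac over 2172 and 1012 bp in the Corin lists and 469 and 644 bp in the DMSO lists. H3K4me2 covered the same intron over 1235, 988, 484 and 696 bp. The microRNA gene MIR150 also starts within the window, at -5948 bp, as does the pseudogene COX6CP7, at -4177 bp.

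Over gene bodies the picture was alike for H3K27ac and H3K4me2. All 3 covered Fc receptor genes were called higher in each, beside 53.4% of 10810 genes in H3K27ac and 39.7% of 14334 in H3K4me2. The H3K27ac body coverage of FCGRT was 3372, 1697, 469 and 1114 bp in Corin 1, Corin 2, DMSO 1 and DMSO 2. In H3K4me3 1 of 2 genes with a peak was called higher, FCGR2A, beside 23.5% of 11161 genes. Shares called lower were 0.953%, 4.76% and 9.09% in the 3 marks, and no Fc receptor gene was among them.

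By level in the DMSO lists, the order in H3K4me2 was FCGRT (4821 ± 142 bp), FCGR2A (2840 ± 700 bp), FCER1G (700 ± 25.5 bp) and FCGR3A (30.5 ± 29.0 bp), each with SD and n = 2, and no neighbours in that order overlapped. In the Corin lists the order of the same genes was unchanged, with FCGR1A (105 ± 148 bp) and FCGR3A (62.5 ± 14.8 bp) overlapping at the bottom. In H3K27ac the order with Corin was FCGRT, FCGR2A and FCER1G, again without overlap between neighbours, and FCGRT alone was marked in DMSO.

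Over the 3 marks together, the treatment was permuted within each mark, as if libraries of different marks were independent. FCGR2A (mean difference 950 bp) and FCGRT (1126 bp) each reached 0.00926, the smallest p that this exact permutation test allows. After Benjamini-Hochberg adjustment over 14221 genes with a peak, the p of this permutation test was 0.153 for both, so neither passed 0.05. FCER1G (201 bp), marked in 2 of the marks, had p = 0.0556 in the same exact test and an adjusted p of 0.244, and 0.0556 is the smallest it could reach. FCGR3A had p = 0.333 and FCGR1A p = 1 in the exact permutation test. No gene of the 14221 had an adjusted p under 0.05. An adjusted p that low would need a large share of all genes to reach the smallest p together. Its absence therefore says little about any single gene. In the exact permutation test 2571 of the 14221 genes (18.1%) had an unadjusted p under 0.05. FCGR2A and FCGRT were among those 2571, but not under every alternative. In the same exact permutation test the unadjusted p of FCGR2A was 0.0833 with a matched number of peaks and 0.0556 with the stricter score, and that of FCGRT was 0.204 per Mb covered and 0.333 in a window of 5 kb.

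**Figure D3:**
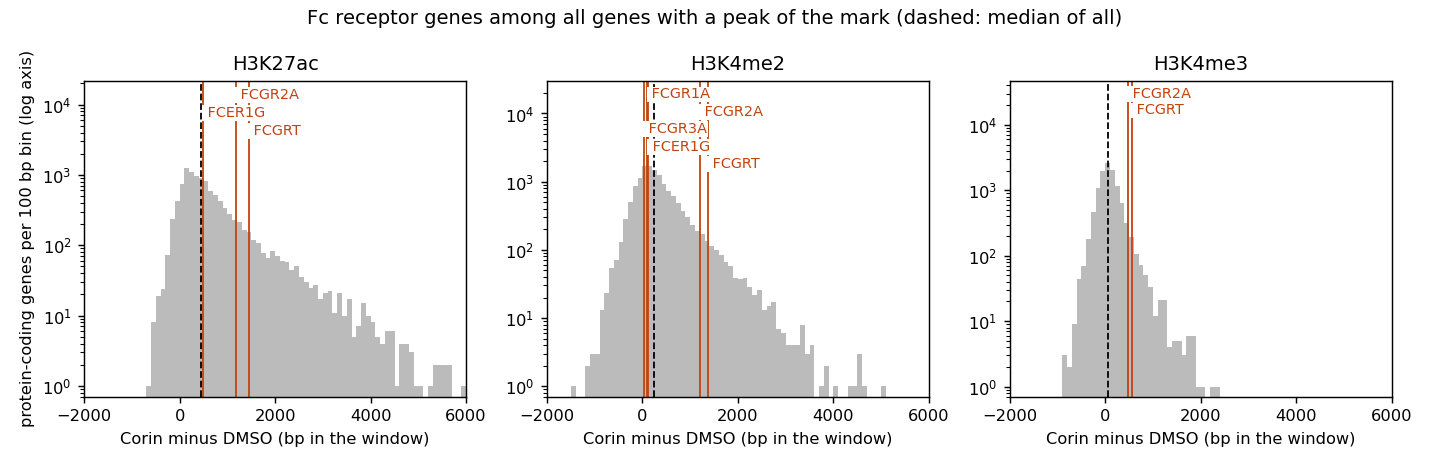
Difference in bases under peaks, Corin minus DMSO (horizontal axis, bp in the window), over all protein-coding genes with a peak of the mark (grey, genes per 100 bp bin on a log axis, dashed line at the median), with each Fc receptor gene as an orange line. FCGR2A and FCGRT lie to the right of the median in all 3 marks, at the 84.2 to 96.2 percentiles, while FCER1G lies near the median of H3K27ac.

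The genes whose coverage over the 12 lists was most like that of each well covered Fc receptor gene were found by the root-mean-square difference in window bases, on another chromosome or over 1 Mb away. For FCGR2A these were RAB7B, a Rab family GTPase of endosomes (305 bp), and DIRAS1, a Ras family GTPase (359 bp). RAB7B had H3K27ac over 1061 and 1220 bp with Corin against 0 and 529 bp with DMSO, but no H3K4me3. For FCER1G they were CX3CR1, the fractalkine receptor of monocytes (91.3 bp), and CLEC4M, a C-type lectin (147 bp). CX3CR1 had H3K27ac over 505 and 309 bp with Corin and 0 bp in both DMSO lists. For FCGRT they were MTMR11 (374 bp) and SAMD13 (437 bp).

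Genes that act after Fc receptor engagement were read from a list of 28 kinases, adaptors, phosphatases and cytoskeletal factors. In H3K27ac 23 of them had a peak in the window, 19 were called higher and 0 lower, beside 54.6% higher and 0.655% lower over all genes with the mark. Their median difference was 1171 bp beside 445 bp. PTPN6, the phosphatase SHP-1 that inhibitory receptors recruit, had the largest difference, with 7967 and 7222 bp in Corin against 3134 and 3897 bp in DMSO. TYROBP, the ITAM adaptor DAP12, had 7125 and 6511 bp against 4396 and 3593 bp. INPP5D, the phosphatase SHIP-1 through which FCGR2B inhibits, had 5489 and 5032 bp against 2885 and 3102 bp. SYK, the kinase that binds phosphorylated ITAMs, had 5006 and 2220 bp against 1805 and 1368 bp. Divided by the length each list covered, 3 of the 23 genes were called higher and 6 lower, near the 16.5% and 25.0% of all genes on that scale. PTPN6, TYROBP, INPP5D and SYK overlapped between the groups there, with 305 and 359 bp per Mb in Corin against 283 and 310 bp per Mb in DMSO at PTPN6, and the mean of TYROBP and of INPP5D was lower with Corin.

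In H3K4me2 27 of the 28 had a peak, 18 were called higher and 4 lower, beside 39.5% higher and 3.83% lower over all genes with the mark. The median difference was 814.5 bp beside 233.5 bp. TYROBP had the largest difference, 10452 and 10169 bp in Corin against 8530 and 8654 bp in DMSO, followed by PIK3CD, the leukocyte catalytic subunit of PI 3-kinase, and FGR, a Src family kinase. The 4 lower genes were PIK3R1, a regulatory subunit of PI 3-kinase (2852 and 2338 bp against 3045 and 3452 bp), CBL, a ubiquitin ligase (2234 and 2014 bp against 2563 and 2593 bp), INPP5D and the phospholipase PLCG2. PIK3R1, CBL and INPP5D were called higher in H3K27ac, but per Mb covered the groups overlapped in that mark for all 3, while in H3K4me2 they were lower on both scales. Per Mb covered, 4 of the 27 genes were called higher in H3K4me2 and 10 lower, beside 9.86% and 45.9% of all genes, and TYROBP was at 221 and 241 bp against 255 and 237 bp, so its groups overlapped and the difference changed sign.

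In H3K4me3 25 of the 28 had a peak, 8 were called higher and 2 lower (PLCG2 and LAT), shares near those over all genes, 25.7% higher and 8.28% lower. The median difference was 71.5 bp beside 63.5 bp. PIK3CD had 724 and 589 bp in the Corin lists and 0 bp in both DMSO lists, the pattern also seen at FCGR2A. LYN, the Src family kinase that phosphorylates ITAMs, had 2465 and 2565 bp against 2135 and 1896 bp, and SYK had 1625 and 1472 bp against 1153 and 972 bp. Per Mb covered, 5 of the 25 were called higher and 4 lower, beside 14.0% and 19.8% of all genes, and PIK3CD, LYN and SYK were among the 5. CD247, the zeta chain used in NK and T cells, had no peak of any mark. None of the 28 had an adjusted p under 0.05 in the permutation test over the 3 marks.

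**Figure D4:**
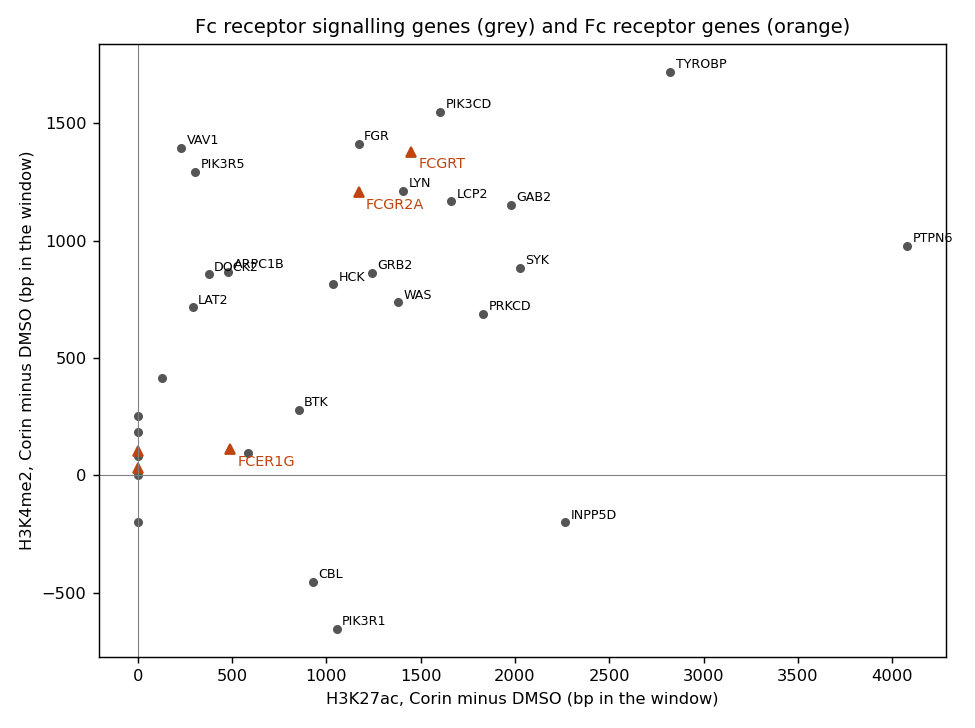
Difference in window coverage, Corin minus DMSO, in H3K27ac (horizontal axis, bp) and H3K4me2 (vertical axis, bp) for 28 Fc receptor signalling genes (grey circles, those far from 0 named) and the Fc receptor genes with a peak (orange triangles). FCGR2A and FCGRT lie among the Src family kinases FGR and LYN, and CBL, INPP5D and PIK3R1 lie below 0 in H3K4me2 and above 0 in H3K27ac; per Mb covered their H3K27ac groups overlapped.

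Other Fc-binding and Fc receptor-like genes were read from a list of 17. H3K27ac was found at 6 of them, of which 5 were called higher and 0 lower, beside 54.6% and 0.655% over all genes. The median difference was 1883 bp beside 445 bp. PIGR, the polymeric immunoglobulin receptor of epithelia, had 3480 and 2395 bp in Corin and 0 bp in both DMSO lists, and FCAMR, a receptor for IgA and IgM beside it, had 2915 and 3779 bp against 392 and 1424 bp. FCER2, the low-affinity IgE receptor CD23, had 2670 and 2541 bp against 0 and 1168 bp. PIGR and FCAMR lie side by side on chromosome 1 with FCMR, the gene of the IgM receptor, which had 2647 and 3561 bp against 504 and 2216 bp. Per Mb covered, 3 of the 6 were called higher, PIGR, FCER2 and FCRLB, and 0 lower, beside 16.5% and 25.0% of all genes.

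In H3K4me2 11 of the 17 had a peak, 7 were called higher and 0 lower, beside 39.5% and 3.83% over all genes. The median difference was 1129 bp beside 233.5 bp. FCRLB, an intracellular Fc receptor-like protein, had 7073 and 6112 bp in Corin against 2966 and 4372 bp in DMSO, the largest difference of the list, followed by FCMR with 4072 and 3891 bp against 1281 and 2189 bp and PIGR with 2181 and 1912 bp against 0 and 264 bp. Per Mb covered, 6 of the 11 were called higher, these 3 among them, and 0 lower, beside 9.86% and 45.9% of all genes. FCRLB was also the only one called higher of 2 genes with H3K4me3 (25.7% over all genes), at 1757 and 1811 bp against 1409 and 1704 bp, and per Mb covered its groups overlapped. FCGR2C, FCER1A, FCRL2, FCRL3, FCRL4 and FCRL5 had no peak of any mark, as FCGR2B and FCAR had none.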

How the data were processed

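Each of the 12 deposited peak lists holds, for 1 library, the authors' peak positions with a whole-number score of at least 50, and no counts. Scores served to order peaks inside their own list and were not compared between lists. The submitters' processing notes name Trim Galore, Bowtie2, Picard and MACS2 and the build hg38, with no versions, and the labels' protocols give reads of 150 bases and a minimum of 5000000 reads per library. How reads with several places were handled is not given in the sources used here. No peak passed a chromosome end of hg38, and no 2 lists were identical.

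The bases under peaks were counted per list in the window and body of 20007 protein-coding genes (Python 3.11.15, numpy 2.4.6, scipy 1.17.1), and the exact permutation test ran over all genes with a peak, with Benjamini-Hochberg adjustment. The counting and the test were tested on simulated data. Regions were the merged peaks of the 4 lists of a mark, and an overlap of 1 bp counted as present. Promoter sequences came from RefSeq (hg38) for 6 of the 7 genes, FCAR having none in the table, and all 11 windows matched the genome.

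The members and the lists of genes were chosen with earlier results of these data known. The text names all 7 genes, their copies, coding, microRNA and pseudogene neighbours that start in a window (the rule covered other noncoding RNAs too, which are not reported here), the 3 genes of each list with the largest difference among those called, and the 2 genes most like each Fc receptor gene marked in at least 6 lists. Other named genes (HSPA6, the lower genes in H3K4me2 and H3K4me3, SYK and FCMR in H3K27ac, and list genes without a peak) were chosen after their values were seen. Alternatives were lists of a matched number, a score of at least 100, a window of 5 kb, the gene body, coverage per Mb, other starts, each replicate left out and a replicate block.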

Additional observations from a re-analysis of the deposited data

How the results depend on the processing

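Of the values of single genes under the alternatives, apart from the block, 110 were 0 in both and had no direction. Among the other 146, 134 kept their direction, 9 moved to or from 0 and 3 reversed. Those 3 were H3K4me2 at FCER1G, at -308.5 bp with lists of a matched number, -308.5 bp with a score of at least 100 and -1.85 bp per Mb covered. The number of Fc receptor genes called higher in H3K4me2 was 0 per Mb covered (9.86% of all genes). In H3K4me3 it was 0 with a matched number (24.4% of all genes), 0 with the stricter score (25.0%), 1 in a window of 5 kb (24.8%), 1 over the gene body (23.5%) and 1 with the starts of the basic transcripts (25.8%), an alternative chosen after seeing the data. The H3K4me3 region present in both Corin lists only was counted 0 times with a matched number and 0 times with the stricter score. With each replicate left out in turn, such regions numbered 2 to 4 in H3K27ac, 0 to 1 in H3K4me2 and 1 to 3 in H3K4me3, the highest in each mark without Corin replicate 2. In the window of 5 kb FCGRT had a difference of 0 bp in H3K27ac and H3K4me3, since its marked places lie farther off. Coverage per Mb was also applied to the gene lists, an alternative chosen after seeing the data. The signalling genes called higher were then 3 instead of 19 in H3K27ac, 4 instead of 18 in H3K4me2 and 5 instead of 8 in H3K4me3, and those called lower 6 instead of 0, 10 instead of 4 and 4 instead of 2. Of the other Fc-binding genes, 3 instead of 5 were called higher in H3K27ac and 0 instead of 1 in H3K4me3. The cause of the other changes was not tested.

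Same-numbered libraries deviated together over genes (r of 0.286 in H3K27ac, 0.309 in H3K4me2 and 0.228 in H3K4me3), but there are only 2 numbers and what a shared number stands for is not labelled. With the replicate block the numbers called higher were 3, 4 and 2 in H3K27ac, H3K4me2 and H3K4me3, which it could not lower by its construction, and 0 genes had an adjusted p under 0.05. The smallest p of the exact test with the block was 0.0313, so that threshold was harder to reach than without it. Peak lists carry no read counts, so precision rests on 2 libraries a group.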
